A study of Mus musculus with 18 samples.

Results

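Wild-type adipose tissue was compared with wild-type liver across all genes of an expression array. The members are the 3 wild-type adipose arrays (replicates 1, 2 and 4) and the 3 wild-type liver arrays (replicates 1, 2 and 3), 6 of the 18 arrays of the series, chosen by their tissue and genotype labels. The series as a whole addresses the loss of Cav1, the gene of the caveola coat protein caveolin-1, in mouse adipose tissue, liver and embryonic fibroblasts (MEFs). Adipose tissue was taken 11 hours and liver 24 hours after food withdrawal, from wild-type (WT) mice kept under a light and dark cycle, and both were rinsed of blood and frozen. Arrays of Cav1 knockout (KO) adipose tissue and KO liver, collected in the same way, and of WT MEFs, a primary line collected 24 hours after plating, served as further comparisons with 3 arrays each. The labels give no strain, sex, age or fat depot, and do not say whether the samples of a group came from separate animals. What the p-values cover is then only how far these samples differ from each other, and some of that may be technical. All WT adipose arrays lay on slide 4, liver replicates 2 and 3 on slide 2 and liver replicate 1 on slide 3, so tissue, slide and fasting time cannot be told apart.

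White adipose tissue stores triglyceride in large lipid droplets, takes up fatty acids released from lipoproteins, makes some from glucose, and returns them to the blood by lipolysis during fasting. Its adipocytes carry dense caveolae at their surface and sit in a collagen network with vessels, fibroblasts and immune cells. The liver makes most plasma proteins and bile acids, detoxifies ammonia through the urea cycle, clears foreign compounds with cytochromes P450 and conjugating enzymes, and supplies glucose and ketone bodies in fasting. In whole tissue, fewer cells of a type and less RNA per cell cannot be told apart.

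Signals are log2 normalized intensities, and every difference is adipose tissue minus liver on that scale. A probe was tested with limma if 3 or more of the 6 arrays gave it a detection p below 0.05, which left 15498 probes. A probe is called where its Benjamini-Hochberg adjusted p was under 0.05. The adipose arrays detected 14877 to 15911 probes and the liver arrays 12076 to 12654. Log2 values correlated at 0.976 to 0.983 between adipose arrays, at 0.974 to 0.982 between liver arrays and at 0.590 to 0.634 between the tissues, over probes that are not independent. Before normalization the 100 brightest probes held 19.1% to 20.5% of the signal on adipose arrays and 26.1% to 27.1% on liver arrays.

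In adipose tissue 6094 probes (39.3%) were called higher and 4690 (30.3%) lower than in liver, 69.6% together, and for 73.9% of probes the values of the tissues did not overlap. With a difference of at least 2-fold added, 4093 (26.4%) were higher and 2924 (18.9%) lower, 45.3% together. These 2-fold counts depend on the background correction, with 1492 higher and 1381 lower when the mean and SD of the inferred controls were used, and 1828 and 1560 with no correction. The median difference over all tested probes was 0.16 after quantile normalization and 0.43 after median centring, and small differences are to be read relative to that shift. The largest differences lay more on the liver side, with 71 probes at least 64-fold higher and 218 at least 64-fold lower in adipose tissue. A gene name could be inferred for 4359 tested genes, of which 1594 (36.6%) were called higher and 1408 (32.3%) lower, with a median difference of 0.05. At the 2-fold level 23.8% were higher and 19.6% lower. These shares are the background against which the counts of each gene group below are to be read. Among the named genes 499 were called higher and detected on all adipose and no liver arrays, and 177 were called lower and detected on all liver and no adipose arrays. For such genes the fold is given as a lower bound. It sets the mean of the tissue with signal against the mean, over the arrays of the other tissue, of the lowest detected level or the probe's own level, whichever was higher.

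Cav1, which forms the coat of caveolae and is the gene deleted in the KO mice, was far higher in adipose tissue. Its levels were 14.42, 14.85 and 14.91 on the adipose arrays, against 7.09, 7.27 and 7.44 on the liver arrays. All 6 arrays detected it, the groups did not overlap, and the difference was 7.46 ± 0.19 (SE, n = 3 arrays per tissue, limma adjusted p = 1.3e-08). The other 3 tested caveola genes did not share a direction. Ehd4, an ATPase at the caveola neck, was higher by 2.84 ± 0.17 (SE). Pacsin3, a membrane-bending caveola protein, was lower, with a difference of -1.38 ± 0.22 (SE). Flot2, a flotillin of detergent-resistant membranes, differed by 0.04 ± 0.15 (SE), which did not pass the test (limma adjusted p = 0.837) but did after median centring, at 0.48. Cav2, the partner of Cav1, was not detected on any of the 6 arrays, and Cavin1, a coat protein of caveolae, was detected on 2 adipose and no liver arrays, so neither was tested.

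All 7 tested adipocyte genes were called higher in adipose tissue, with a median difference of 5.17, and 3 of them were detected on no liver array. Plin4, a lipid droplet coat protein, had levels of 15.32, 15.56 and 15.50 in adipose tissue, against 7.83, 7.81 and 7.82 in liver. The adipose arrays lay far above the liver arrays, with a difference of 7.64 ± 0.15 (SE, limma adjusted p = 5.88e-09). Aqp7, the glycerol channel of adipocytes, was detected on all adipose and no liver arrays and was at least 27.5-fold higher by its brighter probe. A dimmer second Aqp7 probe was higher by 2.98. Fabp4, the adipocyte fatty acid carrier, was higher by 3.68 ± 0.23 (SE). Npr3, the clearance receptor for natriuretic peptides, had adipose levels of 8.19, 10.06 and 10.92, against 4.57, 4.50 and 4.58 in liver. The adipose arrays of Npr3 were widely spread but stayed above every liver array, none of which detected it, for a fold of at least 13.04. Angptl4, a fasting-induced inhibitor of lipoprotein lipase that both tissues make, was higher by only 0.98 ± 0.24 (SE). Adipoq and Retn, the genes of adiponectin and resistin, had no named probe and were not analysed here.

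**Figure D1:**
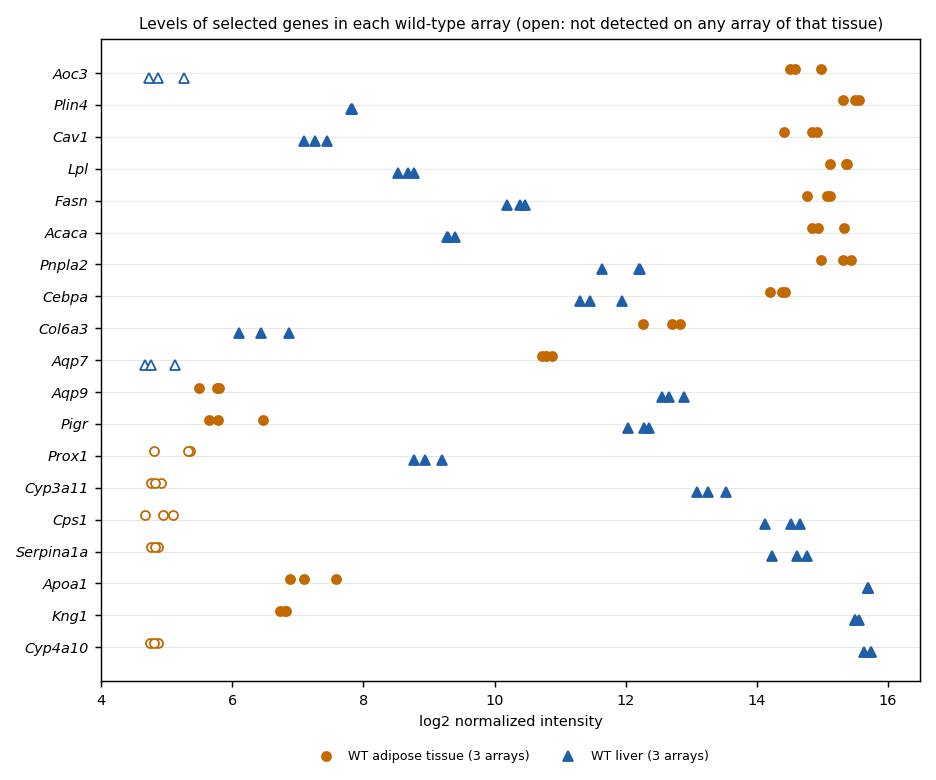
Log2 normalized intensity (x axis) of selected genes (rows) on each WT adipose array (circles) and each WT liver array (triangles), with open symbols where no array of that tissue detected the gene. In each row the 3 adipose and 3 liver points are apart, as for Cav1 at 14.42 to 14.91 in adipose tissue and 7.09 to 7.44 in liver.

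Genes of lipid uptake, storage and lipolysis followed the same direction, with 8 of 9 tested members called higher and a median of 2.75. Lpl, the lipase that frees fatty acids from circulating lipoproteins, had levels of 15.36, 15.12 and 15.38 in adipose tissue, against 8.77, 8.53 and 8.68 in liver. The difference was 6.63 ± 0.16 (SE, limma adjusted p = 1.04e-08), and a dimmer second Lpl probe was higher by 1.26. Pnpla2, the triglyceride lipase that starts lipolysis, was higher by 3.22 ± 0.22 (SE), although liver also gave it a level of 12.03 ± 0.33 (SD, n = 3). Cd36, a fatty acid receptor, was detected on adipose arrays only and was at least 5.54-fold higher. Vldlr, a receptor for triglyceride-rich lipoproteins, was higher by 2.75 ± 0.22 (SE). The exception was Lpin2, a phosphatidate phosphatase of the liver, with a difference of -3.31 ± 0.17 (SE) and detection on 2 of 3 adipose arrays.

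Fatty acid synthesis was also higher in adipose tissue, where 10 of 11 tested genes were called higher and the median was 4.06. Acaca, the carboxylase that makes malonyl-CoA, had levels of 15.34, 14.93 and 14.85 in adipose tissue, against 9.40, 9.29 and 9.27 in liver. Fasn, the fatty acid synthase, had 15.12, 15.08 and 14.76 in adipose tissue, against 10.19, 10.40 and 10.46 in liver. The groups overlapped for neither gene, and the differences were 5.72 ± 0.18 and 4.64 ± 0.17 (SE). Elovl6, which elongates palmitate, was higher by 5.87 ± 0.23 (SE), and Pgd, an NADPH-producing enzyme of the pentose phosphate pathway, by 4.50 ± 0.19 (SE). Scd2, a desaturase, was higher by 7.85 ± 0.36 (SE) and was detected on 2 of 3 liver arrays. Fads2, the delta-6 desaturase of polyunsaturated fatty acids, ran the other way with a difference of -4.73 ± 0.18 (SE) and was detected on 2 of 3 adipose arrays. The livers had been fasted for longer than the adipose tissue, and the part of fasting time in these differences was not tested.

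Genes of insulin and adrenergic signalling were divided, with 7 of 13 tested members called higher and 4 lower. Among the 13, 2 were detected on no liver array. Prkar2b, a regulatory subunit of protein kinase A, was higher by 4.37 ± 0.17 (SE) and was detected on 2 of 3 liver arrays. Pde3b, the phosphodiesterase through which insulin restrains lipolysis, was 8.02-fold higher, and Akt2, a kinase of insulin signalling, was higher by 1.91 ± 0.14 (SE). Igf1 and Igfals, the growth factor and its carrier subunit that the liver releases, were lower by differences of -1.60 ± 0.22 and -1.59 ± 0.21 (SE). Among binding proteins of the growth factor, Igfbp5 was higher by 5.13 ± 0.50 (SE), with detection on 2 of 3 liver arrays, and Igfbp4 was lower, at -1.59 ± 0.17 (SE).

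All 13 tested collagens and collagen-processing genes were called higher in adipose tissue, with a median of 4.53. Of the 13, 5 were detected on no liver array and entered the test through adipose tissue alone. Col6a3, a chain of collagen VI, had levels of 12.26, 12.72 and 12.82 in adipose tissue, against 6.87, 6.09 and 6.44 in liver. Col6a1, another chain of collagen VI, was higher by 5.96 ± 0.29 (SE). Col1a1, a chain of collagen I, and Col15a1, a basement membrane collagen, were detected on no liver array and were at least 25.7-fold and 40.8-fold higher. Serpinh1, the collagen chaperone, was higher by 4.89 ± 0.18 (SE). Of 16 tested other matrix genes 14 were called higher, among them Hspg2, the basement membrane proteoglycan perlecan, at 4.72 ± 0.27 (SE), and Timp3, a protease inhibitor, at 3.70 ± 0.20 (SE). A dimmer second Timp3 probe was higher by 1.34. No liver array detected 5 of the 16. Spp1, the gene of osteopontin, was lower with a difference of -1.95 ± 0.25 (SE). Of 16 tested genes of the actin cytoskeleton and its adhesions, 12 were called higher and 2 lower, with a median of 1.63. Among these 16, 2 were detected on no liver array. S100a11, a calcium-binding protein, was higher by 4.30 ± 0.28 (SE), while Cald1, the actin-binding caldesmon, was lower at -1.77 ± 0.22 (SE) and was detected on 2 of 3 adipose arrays.

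**Figure D2:**
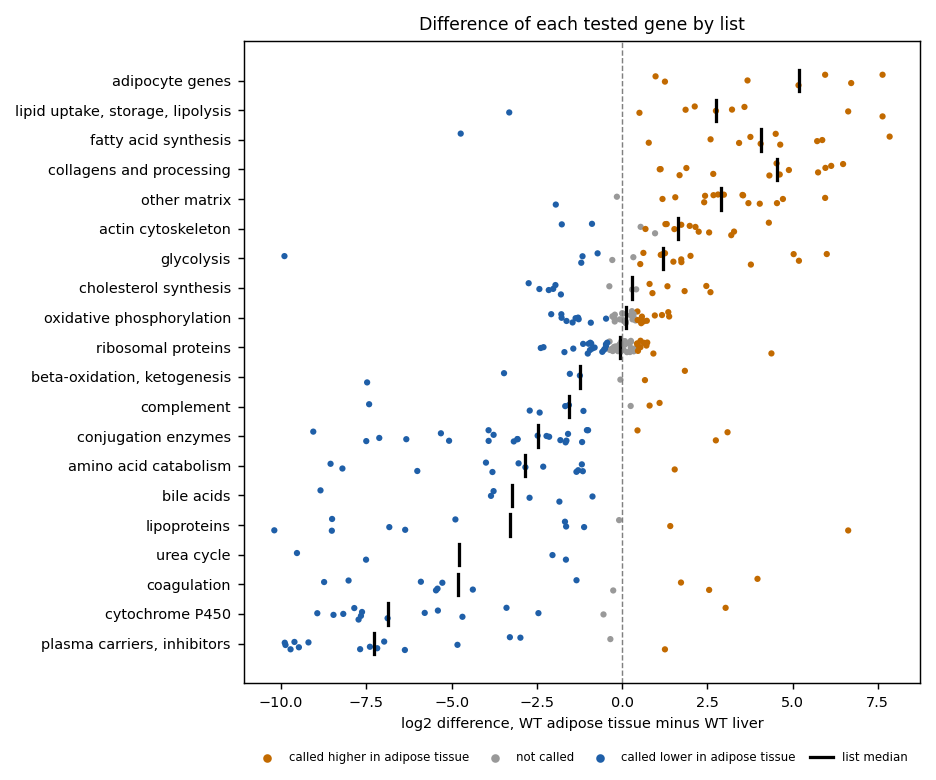
Log2 difference, WT adipose tissue minus WT liver (x axis), of each tested gene (points) in 20 gene lists (rows), coloured by call, with list medians as black bars. Medians run from 5.17 for adipocyte genes to -7.29 for plasma carriers and inhibitors, and the ribosomal (-0.06) and oxidative phosphorylation (0.11) lists lie near 0.

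Among transcription factors of adipose tissue, 5 of 8 tested were called higher and 3 lower, and 3 of the 8 were detected on no liver array. Cebpa, a driver of adipocyte and hepatocyte differentiation, had levels of 14.38, 14.44 and 14.21 in adipose tissue, against 11.95, 11.45 and 11.30 in liver. Every adipose array was above every liver array, and the difference was 2.78 ± 0.20 (SE). Ebf1, an early factor of the adipocyte lineage, was detected on no liver array and was at least 9.76-fold higher. Nr1h3, the oxysterol receptor LXR alpha, was higher by 1.38 ± 0.19 (SE). Cebpb, a related factor that also acts in liver, was lower at -2.21 ± 0.19 (SE) and Rxra, a partner of many nuclear receptors, at -0.82 ± 0.16 (SE). The list median was 1.26 over tested members and -0.51 over members detected on all 6 arrays, so it is set by the filter. Of 4 tested factors of hepatocytes 3 were called lower. Onecut2 and Prox1, both needed in liver development, were not detected in adipose tissue and were at least 14.3-fold and 10.8-fold lower there. Onecut1, a factor of the same family as Onecut2, was lower at -1.40 ± 0.22 (SE) with detection on 1 of 3 adipose arrays.

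Of 16 tested carriers and protease inhibitors 14 were called lower in adipose tissue, with a median of -7.29, and 5 of the 16 were detected on no adipose array. Kng1, the gene of kininogen, is counted among the coagulation genes below. It had levels of 6.80, 6.82 and 6.72 in adipose tissue, against 15.50, 15.51 and 15.56 in liver. The difference of -8.74 ± 0.14 (SE) was far outside the spread of either tissue (limma adjusted p = 5.44e-09). Mup1, a major urinary protein, had levels of 6.88, 6.55 and 6.96 in adipose tissue and was the brightest probe of each liver array, with a difference of -9.20. Quantile normalization gives probes of the same rank the same value on each array, so the liver values of Mup1 are identical by construction. Crp, an acute phase protein outside this list, was not detected in adipose tissue and was at least 540-fold lower there. Serpina1a, an alpha-1 antitrypsin, was at least 514-fold lower, and Mug1, a murinoglobulin that inhibits proteases, at least 468-fold by its brightest probe. Dimmer Mug1 probes were lower at -8.54 and -2.34. The Mup, Mug and Serpina1 genes have near-identical copies whose transcripts a probe may share, so values of single members are uncertain. Orm1, the acute phase protein orosomucoid, was the exception, with 14.12, 14.28 and 14.53 in adipose tissue, against 12.98, 13.14 and 13.03 in liver. It was higher by 1.26 ± 0.16 (SE), and Trf, the iron carrier transferrin, differed by -0.34, which did not pass the test.

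Apolipoproteins and related genes were called lower for 9 of 12 tested members, and 1 of the 12 was detected on no adipose array. Apoa1, the main protein of high-density lipoprotein, had levels of 7.58, 6.87 and 7.09 in adipose tissue, against 15.70 on each liver array, identical because the probe held the same rank. Apoc3, an inhibitor of triglyceride clearance, was lower at -6.83 ± 0.28 (SE). Apoe, a receptor ligand that many tissues make, was lower by a smaller difference of -1.64. Abcg1, a cholesterol exporter, and Lpl were the 2 members called higher. Of 12 tested coagulation genes 8 were called lower, among them Serpinf2, the plasmin inhibitor, at least 160-fold, and Klkb1, plasma prekallikrein, at least 47.8-fold. No adipose array detected 5 of the 12, and no liver array detected 1 other. Serpine2, a tissue inhibitor of thrombin, was higher by 3.97 ± 0.56 (SE), though detected on 1 of 3 liver arrays, where its level was 7.48 in replicate 2. Of 9 tested complement genes 6 were called lower. Mbl1, a mannose-binding lectin, was at least 95.1-fold lower, and C4b was lower at -2.42 ± 0.26 (SE). C1qb, which macrophages make, was higher by 1.10 ± 0.34 (SE), a call lost when adipose replicate 2, adipose replicate 4 or liver replicate 2 was left out (differences of 0.75 to 1.37 over the 6 such fits).

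Urea cycle, amino acid and bile acid genes were nearly all lower in adipose tissue. All 4 tested urea cycle genes were called lower, and 2 of them were detected on no adipose array. Cps1, the carbamoyl phosphate synthetase that starts the cycle, had adipose levels of 4.95, 4.67 and 5.09 without detection, against 14.13, 14.66 and 14.53 in liver, and was at least 481-fold lower. Ass1, argininosuccinate synthetase, had 7.42, 7.23 and 7.07 in adipose tissue, against 14.61, 14.87 and 14.77 in liver.
Of 13 tested genes of amino acid breakdown 12 were called lower, with a median of -2.84, and 3 of the 13 were detected on no adipose array. Bhmt, a homocysteine methyltransferase, and Tdo2, which opens the tryptophan ring, were not detected in adipose tissue and were at least 194-fold and 150-fold lower. Ivd, an enzyme of leucine breakdown, was higher by 1.54 ± 0.21 (SE). All 6 tested bile acid genes were called lower, from Slc27a2, a fatty acid and bile acid ligase detected on 1 of 3 adipose arrays, at -8.85 ± 0.26 (SE) to Hsd3b7, a sterol dehydrogenase, at -0.87 ± 0.24 (SE). No adipose array detected 3 of the 6.

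Of 19 tested genes of glycolysis 13 were called higher and 4 lower. No liver array detected 3 of the 19, and no adipose array detected 2 others. Pkm, the muscle-type pyruvate kinase, had levels of 13.85, 13.52 and 13.71 in adipose tissue, against 8.20, 7.01 and 7.85 in liver. Pfkfb3, which makes an activator of phosphofructokinase, was higher by 5.19 ± 0.20 (SE). Aldoa, a widely expressed aldolase, was higher by 3.78 ± 0.16 (SE). Ldhb, a lactate dehydrogenase subunit, was at least 15.6-fold higher, and Ldha, the other subunit, was higher by 0.53 ± 0.16 (SE), a call lost without liver replicate 3. The glycerol channels were opposed, with Aqp9, the channel of hepatocytes, at -7.02 ± 0.17 (SE) with detection on 2 of 3 adipose arrays, and Aqp7 higher. Acyl-CoA synthetases were divided as well, with Acsl1 higher by 1.86 ± 0.18 (SE), Acsl5 at -2.19 ± 0.16 (SE) and Acsl4 at -1.61 ± 0.20 (SE). A second Acsl4 probe was at -0.21, which did not pass the test. Krt8 and Krt18, the keratin pair of simple epithelia, were lower at -6.13 ± 0.32 and -5.45 ± 0.21 (SE), with detection on 1 and 2 of the 3 adipose arrays. A second Krt8 probe was detected on 1 adipose and no liver array, so it was not tested. Of 8 tested genes of gluconeogenesis, glycogen and fructose handling 4 were called lower and 3 higher. Of the 8, 1 was detected on no adipose array. Slc37a4, the glucose 6-phosphate transporter, was lower at -4.05 ± 0.30 (SE). Pck1, the carboxykinase used in liver for glucose and in adipose tissue for glycerol, differed by -0.24, which did not pass the test.

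**Figure D3:**
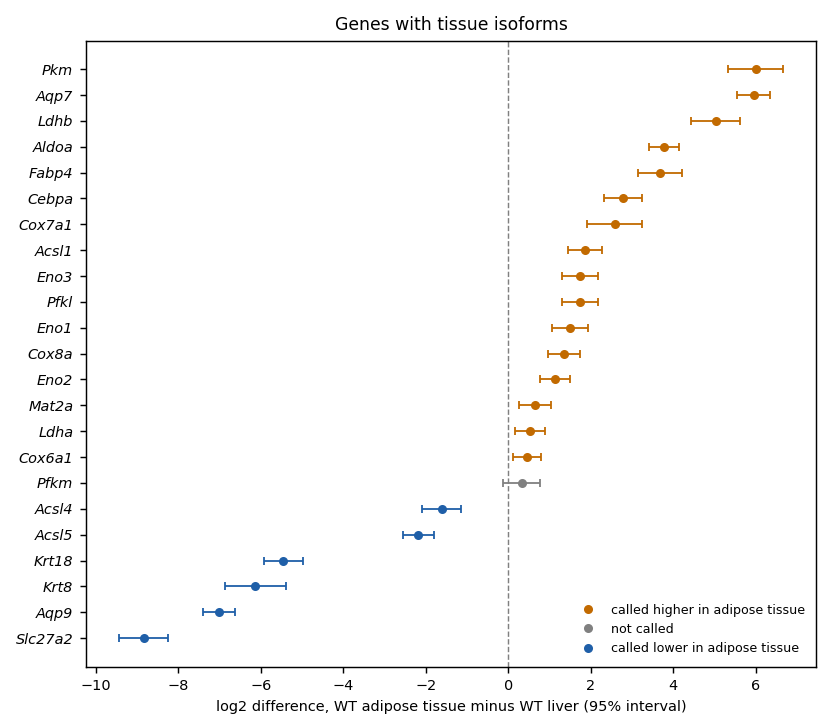
Log2 difference, WT adipose tissue minus WT liver (x axis), with its 95% interval for genes that have tissue isoforms (rows). Aqp7 (5.95) and Aqp9 (-7.02) lie on opposite sides of 0, and Aldoa lies at 3.78.

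Of 7 tested genes of beta-oxidation and ketogenesis 4 were called lower and 2 higher. Bdh1, which makes the ketone body hydroxybutyrate, was not detected in adipose tissue and was at least 127-fold lower there. Crat, carnitine acetyltransferase, was higher by 1.84 ± 0.29 (SE). Peroxisomal and omega oxidation genes were called lower for 9 of 12 tested members, and 5 of the 12 were detected on no adipose array. Cyp4a10, a fatty acid hydroxylase induced by fasting in liver, had adipose levels of 4.74, 4.86 and 4.80 without detection, against 15.63, 15.74 and 15.74 in liver. It was at least 1156-fold lower by its brighter probe, and a dimmer second Cyp4a10 probe was lower at -9.38. Abcd2, a peroxisomal transporter, was higher by 2.87 ± 0.26 (SE). Cholesterol synthesis had no common direction, with 6 of 15 tested genes called higher and 6 lower. Acat2, which joins acetyl groups at the entry of the pathway, was higher by 2.59 ± 0.27 (SE).

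Cytochromes P450 were called lower in adipose tissue for 13 of 15 tested members, with a median of -6.88. Of the 15, 9 were detected on no adipose array and entered the test through liver alone. Cyp3a11, a main drug-metabolizing enzyme of mouse liver, had adipose levels of 4.92, 4.76 and 4.82 without detection, against 13.26, 13.10 and 13.53 in liver, and was at least 218-fold lower. Cyp2d10 was at least 343-fold lower, although P450 genes of a subfamily are close in sequence and their single values are uncertain. Cyp1b1, a P450 found mainly outside the liver, was higher by 3.04 ± 0.32 (SE) and was detected on 1 of 3 liver arrays. Of 25 tested conjugating and related enzymes 22 were called lower, among them Glyat, which joins glycine to acyl groups, at -9.06 ± 0.24 (SE) with detection on 1 of 3 adipose arrays. No adipose array detected 9 of the 25. Mgst3, a microsomal glutathione transferase, and Gstm2, a cytosolic one, were higher by 3.09 ± 0.27 and 2.75 ± 0.17 (SE).

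Of 37 tested nuclear genes of oxidative phosphorylation 11 were called higher and 10 lower, with a median of 0.11 that turned to -0.05 under cyclic loess normalization. Ndufb2, a subunit of complex I, was lower at -2.08 ± 0.26 (SE), and Ndufc1, another, was higher by 1.38 ± 0.16 (SE). Of 62 tested ribosomal protein genes 12 were called higher and 18 lower, with a median of -0.06. Rps19 stood apart, with 9.51, 9.13 and 9.16 in adipose tissue, against 4.88, 4.90 and 4.89 in liver without detection, at least 9.52-fold higher. Every cell uses this gene, so the lack of detection in liver leaves the probe's name uncertain. Of 13 probes for transcripts of the mitochondrial genome 7 were called higher and 2 lower in adipose tissue, and 4 were not called. ND4, a subunit of complex I, was at 15.78 ± 0.20 in adipose tissue and 15.52 ± 0.02 in liver (SD, n = 3 each), a difference of 0.26 that did not pass the test. COXI, a subunit of complex IV, was higher by 2.76 ± 0.16 (SE). In the KO arrays COXI and CytB were again called higher and ATP6 lower in adipose tissue. Of the others called higher in WT, ATP8 and ND5 kept their sign in KO without a call. ND1, ND3 and ND4L had the other sign there, also without a call. On adipose replicate 2 the 12 brightest probes lay between 68259 and 70394 raw units, so differences between the brightest signals may be compressed.

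Fasting time differed between the tissues, and of 6 tested genes of the fasting response 2 were called higher and 3 lower. Mt1, a metallothionein, was lower at -0.87 ± 0.17 (SE). Of 12 tested immediate early and stress genes 4 were called higher and 5 lower, and 2 of the 12 were detected on no liver array. Hspa5, a chaperone of the endoplasmic reticulum, was lower at -3.18 ± 0.25 (SE), and Klf6, an early response factor, was higher by 2.67 ± 0.30 (SE). Of 4 tested clock genes Nr1d2, a repressor of the clock, was the member called, higher by 2.02 ± 0.33 (SE) with detection on 2 of 3 liver arrays, but its second probe was called lower at -1.31, so its direction is not settled. Cdkn1a, a cell cycle inhibitor, was called lower at -1.26 ± 0.48 (SE). That call held only when adipose replicate 4, whose level was 9.99, was the array left out (-1.91). A second Cdkn1a probe was at -0.35, which did not pass the test.

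Markers of other cell types were read in both tissues. All 4 tested endothelial markers were called higher in adipose tissue, led by Pecam1, an adhesion molecule of endothelium, at 2.46 ± 0.27 (SE). Of 5 tested macrophage markers 3 were called higher. Among them was Lyz2, a lysozyme, with 9.87, 11.60 and 11.35 in adipose tissue, against 9.14, 8.38 and 8.60 in liver. A second Lyz2 probe was detected on no array of either tissue. Cd68, another of the 3, was detected on no liver array and entered the test through adipose tissue alone. All 3 tested lymphocyte markers were called higher, and 1 of them, Cd3e, was detected on no liver array. Ighm, the immunoglobulin M heavy chain, had 8.06, 10.15 and 11.49 in adipose tissue, against 7.09, 7.33 and 7.35 in liver. Adipose replicate 1 was the lowest adipose array for both Lyz2 and Ighm. Summed raw signal of the lymphocyte probes ran from 1874.5 to 8267.7 on adipose arrays and from 583.7 to 732.1 on liver arrays, and that of the macrophage probes from 4980 to 15154 and from 1341.5 to 2073.2. The haemoglobin chains Hbb-b1 and Hbb-b2, close copies of each other, were lower at -1.71 ± 0.48 and -2.42 ± 0.44 (SE), and Hba-a1 differed by 0.10, which did not pass the test. Of 3 tested markers of mesothelium 0 were called higher and 1, Krt8, was called lower. Upk3b, another of them, had raw signals of 190.5, 1504.5 and 671.5 on adipose arrays, against 132.3, 105.0 and 136.3 on liver arrays. It did not pass the test (2 arrays of each tissue detected it). Of the tested markers of adipose stroma, Pcolce, an enhancer of collagen processing, was higher by 1.68 ± 0.25 (SE). Dlk1, a preadipocyte protein, was called lower at -0.59 ± 0.21 (SE), a call lost when any adipose array or liver replicate 3 was left out (-0.80 to -0.41 over the 6 such fits). Both tested markers of hepatic stellate and bile duct cells were called lower. No probe of the muscle, pancreas or epididymis and testis lists was detected on all arrays of either tissue. Of brown adipocyte markers Cox7a1, a complex IV subunit, was higher by 2.58 ± 0.29 (SE), and Prdm16 was detected on no array of either tissue. Cell type proportions and their part in the gene group differences were not tested. Of the Y-linked genes Eif2s3y and Kdm5d were detected on all 6 arrays, Ddx3y on 1 adipose and no liver array, and Uty on none. Xist was detected on none. Eif2s3y was lower at -0.77 and Kdm5d differed by 0.03, which did not pass the test.

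The same contrast in KO arrays used none of the arrays above, but it shares the confounding of tissue with slide and fasting time. There 5736 of 15797 tested probes (36.3%) were called higher and 4451 (28.2%) lower in adipose tissue. Of all probes called in WT, 10160 were tested in KO, 9855 had the same sign and 8215 were called with the same sign. Of the probes called and at least 2-fold apart in WT, 6664 were tested in KO. Of these 6606 had the same sign and 6185 were called with the same sign. The difference itself was tested with an interaction term over the 12 arrays, and 233 of 18081 probes (1.29%) were called. Cav1 was one of them, with a difference of 7.46 in WT and 4.90 in KO (limma adjusted p = 0.0266 for the interaction). Its raw signal was 1939.9, 3167.4 and 2296.9 in KO adipose tissue, against 25664.1, 50304.0 and 40700.4 in WT adipose tissue. In liver it was 133.7, 123.2 and 109.6 on KO arrays, against 158.0, 165.7 and 186.0 on WT arrays. Only 1 KO liver array detected Cav1, so the size of its KO difference is uncertain. Most named genes kept their tissue difference in KO, such as Plin4 at 7.85 and Kng1 at -8.76.

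**Figure D4:**
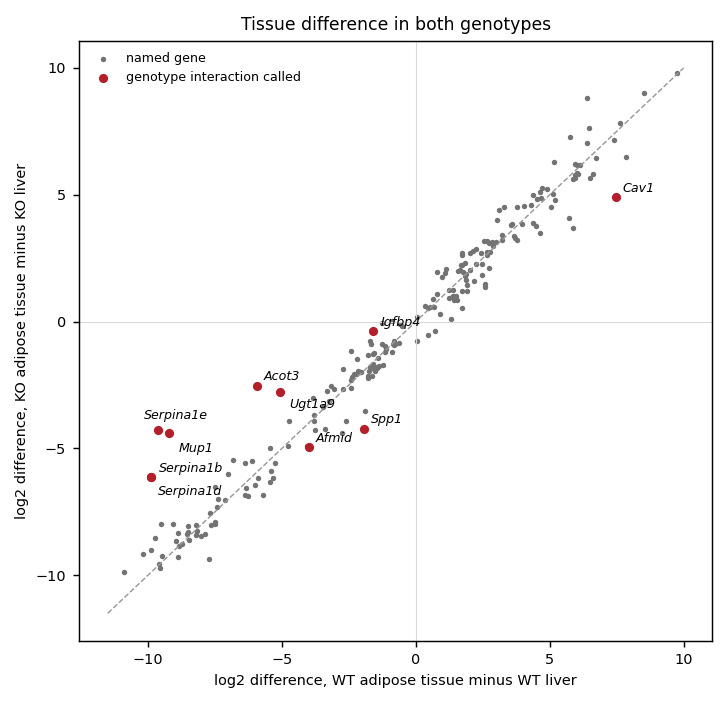
Log2 difference between adipose tissue and liver in WT (x axis) and in KO (y axis) of the named genes, with genes called for the genotype interaction in red and the line of equal differences dashed. Most points lie near the line, and Cav1 (7.46 in WT, 4.90 in KO) and Mup1 (-9.20 in WT, -4.41 in KO) lie off it.

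Adipose tissue was also set against WT MEFs in a fit of 9 arrays, which shares the adipose arrays with the comparison above, so the values stand side by side without a test between them. Over named genes 32.8% were called higher and 37% lower in adipose tissue than in MEFs (21.8% and 23.3% at the 2-fold level). Of the 1039 named genes called at least 2-fold higher in adipose tissue than in liver, 629 (60.5%) were also called higher than in MEFs and 197 (19.0%) were called lower. The collagen list, higher than in liver for 13 of 13 tested members, was higher than in MEFs for 2 and lower for 9, with a median of -2.20. For Col1a1 the difference was 5.75 from liver and -1.89 from MEFs. In the actin list 15 of 16 members were called lower than in MEFs. Lipid uptake and storage genes were higher than in MEFs for 8 of 9 members, with a median of 5.69, and fatty acid synthesis genes for 8 of 11. Cav1 was higher in adipose tissue than in MEFs by 0.84. Ribosomal protein genes, near 0 against liver, were called lower than in MEFs for 59 of 62, and oxidative phosphorylation genes were called higher for 26 of 37.

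**Figure D5:**
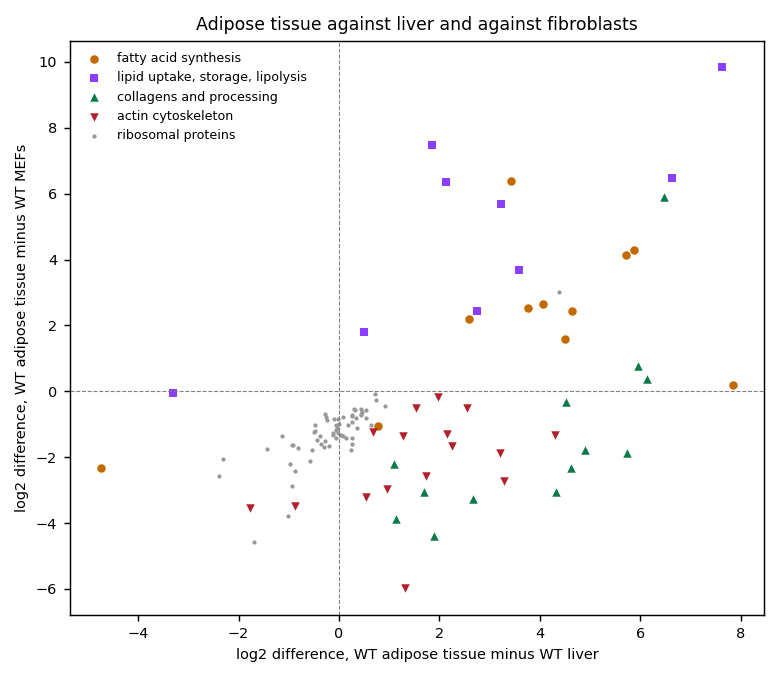
Log2 difference of adipose tissue from liver (x axis) and from MEFs (y axis), all WT, for genes of 5 lists. Lipid uptake, storage and lipolysis genes lie mostly in the upper right, with 8 of 9 called higher than in MEFs, while collagen and actin genes lie mostly to the lower right, with 9 of 13 and 15 of 16 called lower than in MEFs.

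Promoters were read from RefSeq sequences of the mouse build GRCm38.p6, 250 bases before to 50 after the first start listed for a gene, and searched on both strands. Promoters were at hand for 78.15% to 79.72% of the genes in the sets that differed between the tissues. That is under the 80% needed to compare sets, so a comparison of motif shares between them is void and none is given. Over all 27025 promoters TATAAA, the TATA box, was found in 14.2% and GTTAAT, part of the site of the hepatocyte factor HNF1, in 7.2%. A match is a description and not a binding site. The 100 bases before the start are shown for 2 genes higher and 2 genes lower in adipose tissue, picked after their values were seen, with TATAAA and GTTAAT in capitals where a script found them. Cebpa lies at chr7:35119193-35119292 on the plus strand, Cav1 at chr6:17306235-17306334 on the plus strand, Crp at chr1:172697956-172698055 on the plus strand and Serpina1a at chr12:103863620-103863719 on the minus strand.
Cebpa: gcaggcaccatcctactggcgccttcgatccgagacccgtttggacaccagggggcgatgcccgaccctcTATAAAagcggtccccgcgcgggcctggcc
Cav1: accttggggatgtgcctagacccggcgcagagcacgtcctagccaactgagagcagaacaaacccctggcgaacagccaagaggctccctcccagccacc
Crp: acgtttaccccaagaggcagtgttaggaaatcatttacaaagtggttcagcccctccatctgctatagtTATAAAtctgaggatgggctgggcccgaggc
Serpina1a: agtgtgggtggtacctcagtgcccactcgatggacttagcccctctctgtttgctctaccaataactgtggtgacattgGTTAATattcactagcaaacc
TATAAA begins 30 bases before the start in Cebpa and 31 bases before it in Crp, and GTTAAT begins 21 bases before the start in Serpina1a. Neither run of letters lies in the 100 bases shown for Cav1. The same 100 bases were searched for Apoa2 and Cyp3a11, lower in adipose tissue, and for Plin4, Aqp7 and Nnat, higher there. These held neither run, so the genes shown do not tell how common a match is.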

How the data were processed

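Total RNA of 18 samples was hybridised to Illumina Mouse-6 V1 arrays. The deposited values are bead signal intensity with a deposited detection p-value per probe. Per the file headers they come from BeadStudio 1.5.1.3, where neither normalization nor an error model was applied. Other deposited information gave each array's slide. Limma, affy, lumi and RMA appear in the submitters' processing notes, with no step given. From 45992 probes 77 control probes were left out. Gene names were inferred. Numbers inside probe names were matched to gene IDs of a RefSeq table (82.6% of 11868 matched, against 41.1% to 46.2% after adding small shifts), which named 9807 probes, and RIKEN clones, file names and accessions brought the total to 10807. A single name can be wrong.

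Background was corrected by normexp with the median and the median absolute deviation of the negative controls, both inferred from detection p-values, an offset of 16 was added, and the 6 arrays were quantile normalized together. Probes were tested with limma 3.58.1 in R 4.3.3 (lmFit, eBayes, two-sided). The brightest probe stands for a gene. The number of arrays limits the precision. On simulated data with 15498 probes, 100 were changed by 1 and 100 by 2 on the log2 scale. Of these 44% and 89% were recovered, with 9 false calls among 142. In the data 69.6% of probes were called, which makes the adjusted p less strict, so these rates do not carry over to the comparison. Alternatives covered background, normalization, filter, variance model, slide, replicate block and leaving out each array. After the data were seen, the list of control probes was extended, and the probe set of the full fit was kept when an array was left out, because a filter over 5 arrays shifted the split of calls.

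Members and gene lists were chosen with earlier results of these data known. Named were Cav1, the 10 largest differences in each direction among genes detected on all arrays, the 10 brightest in each direction detected in 1 tissue only, up to 6 called members of each list with the largest differences, called members against the expected side, all measured members of the caveola, transcription factor, isoform and sex marker lists, and any of these with a called genotype interaction. Other genes in the text (Cav2, Cavin1, Trf, Pck1, Apoe, Hba-a1, Upk3b, Prdm16, Xist and the mitochondrial transcripts) were added after their values were seen. The deposited table of processed values was not used here. A few genes of the lists are counted but not reported here by name.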

Additional observations from a re-analysis of the deposited data

Results flagged for a closer look

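For 10 named genes the difference between adipose tissue and liver itself differed between WT and KO arrays, by the limma interaction term. The values are the WT difference minus the KO difference on the log2 scale: Cav1 at 2.51, Spp1 at 2.27, Afmid at 1.03, Igfbp4 at -1.19, Ugt1a9 at -2.48, Acot3 at -3.57, Serpina1b at -3.64, Serpina1d at -3.68, Mup1 at -4.66 and Serpina1e at -5.35. Mup1 had 5197.2, 3350.7 and 7727.2 in KO adipose tissue, against 323.7, 375.2 and 400.5 in WT adipose tissue, while its liver signals were 58076.5 to 61597.5 on KO arrays and 60607.7 to 65651.8 on WT arrays. Serpina1d had 915.8, 1530.4 and 1051.1 in KO adipose tissue, against 183.3, 236.2 and 229.7 in WT adipose tissue. Serpina1e had 795.3, 576.5 and 578.5 in KO liver, against 26327.0, 23442.3 and 17662.3 in WT liver. Acot3, a peroxisomal thioesterase, had 160.1, 187.3 and 170.6 in KO liver, against 1242.2, 742.8 and 1364.9 in WT liver. Acot3 and Ugt1a9 were detected on no adipose array of either genotype, and Serpina1e on 1 adipose array of each. Detection was on 1 WT adipose array for Serpina1b and Serpina1d, 1 KO adipose array for Spp1 and 1 KO liver array for Cav1. Where a tissue was near the background, the size of the difference is uncertain. The Serpina1 and Mup genes have near-identical copies, so which copy a probe reads is uncertain.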

How the results depend on the processing

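No called gene among those named turned its direction under any alternative. Flot2 and Kdm5d, which were not called, crossed 0 when single arrays were left out (-0.02 to 0.09 and -0.20 to 0.19), and 18 of 797 list medians turned. Lower calls outnumbered higher ones over probes detected on all 6 arrays (2922 higher, 3168 lower) and, at the 2-fold level, under cyclic loess (3199 higher, 3242 lower). The counts at the 2-fold level moved by over 1.5 times with the background: 1492 higher and 1381 lower with the mean and SD of the inferred controls, and 1828 and 1560 with no correction. They came to 2251 and 1721 with limma's treat, and to 1563 and 1606 over probes detected on all 6 arrays, where 2922 were called higher. Median centring put the median difference at 0.43 and 66.4% of calls on the higher side, 75th percentile centring 0.39 and 65.2%, and quantile normalization 0.16 and 56.5%. Of 228 called genes named, 209 kept their call in every alternative that tested them. Leaving out each array gave 5666 to 6020 probes called higher and 4271 to 4531 lower, with Cav1 at 7.28 to 7.70. With the replicate number as a block, 5121 were higher and 3805 lower, Cav1 was at 7.45 and 12 named genes lost their call. Adipose replicate 4 and liver replicate 3 have no partner in that fit, so its differences come from replicates 1 and 2 alone. Arrays of different tissue with the same number deviated together at correlations of -0.07 and 0.02, so the pairing rests on a number alone. The median of the adipose transcription factors was -0.51 and that of gluconeogenesis 0.71 over genes detected on all 6 arrays, against 1.26 and -1.06 over all tested. Signals near the background set no order, and the background was higher on adipose arrays (167 to 184 raw units) than on liver arrays (100.3 to 107.4).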
